A study of Mus musculus with 4 samples.

Results

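The genes described are the Rab GTPases of vesicle traffic, taken by symbol (Rab, a number and at most a letter and a digit more) from the genes named on the array, whatever their values. The rule found 59 genes among 19938 named genes, and no Rab symbol of the RefSeq gene table for mouse was left without a probe set. They were measured in dendritic cells grown from mouse bone marrow with 20 ng/mL GM-CSF, a myeloid growth factor, and electroporated on day 10 with an siRNA. The 4 conditions had 1 Affymetrix Mouse Gene 1.0 ST array each: NR4A3 siRNA with LPS, NR4A3 siRNA unstimulated, control siRNA with LPS and control siRNA unstimulated. LPS, the bacterial lipopolysaccharide sensed through TLR4, was given at 100 ng/mL from 24 hours after transfection and for 24 hours. NR4A3 belongs to the NR4A family of orphan nuclear receptors, which bind DNA and regulate transcription, and all 4 cultures went through electroporation with an siRNA. The labels give the strain as C57BL/6 in the sample characteristics and as BALB/c in the growth protocol. Separate cultures or mice are not named for the 4 arrays, so the p-values given here cannot be read as a spread between cultures or mice.

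Rab proteins are small GTPases that mark membranes. A Rab bound to GTP sits on the surface of an organelle or vesicle and recruits effectors that move, tether and fuse it, and it is switched on by exchange factors and off by GTPase-activating proteins. New Rab proteins receive prenyl lipids at their C-terminus with the help of an escort protein, and GDI proteins carry them between membranes. In dendritic cells these routes take up antigen, mature phagosomes, return MHC molecules to the surface and carry TLR4 and cytokines to the plasma membrane.

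Values are log2 expression levels, and a difference between 2 arrays is given as a log2 difference or as a fold. Levels of different genes come from different probes and are not compared with each other. Where LPS or siRNA groups are said not to overlap, this only describes the values. With 2 arrays on each side such separation arises easily, and its share over all genes was not counted. A comparison of 2 arrays has no replicate and no p-value. A gene was counted in it when the arrays lay at least 1.5-fold apart and the brighter of them reached 6.66, the median of all named genes over the 4 arrays, called the filter below. The average effects of LPS and of NR4A3 siRNA over all 4 arrays were tested with limma in an additive fit over 10592 genes, with 1 residual degree of freedom and an adjusted p under 0.05 as the threshold. Its error therefore mixes array noise with any difference of the LPS effect between the siRNAs. limma also draws each gene's error toward a prior pooled over all tested genes, here with 4.76 prior degrees of freedom. An SE given below is thus largely shared between genes and is not a gene's own spread over replicates. On every array 40 Rab genes lay at or above the filter, 5 did so on 1 to 3 arrays and 14 on none. The tested set thus holds 45 of 59 Rab genes, or 76.3%, while 53.1% of all named genes reached the filter on at least 1 array.

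The labels were first checked against marker genes. Nr4a3, the target of the siRNA, stood at 9.39 with LPS and 7.15 without it on the NR4A3 siRNA arrays, against 11.77 with LPS and 11.21 without it on the control siRNA arrays. It was 5.21-fold lower with LPS and 16.6-fold lower without, and still above the filter on every array. Its siRNA effect was -3.22 ± 0.36 (SE, adjusted p = 0.0145), from limma with Benjamini-Hochberg adjustment. Of 8 dendritic cell markers, 7 reached the filter on every array, among them the integrin gene Itgax and the MHC class II genes, and Flt3 stayed below it on all 4. Zbtb46, also of the dendritic cell list, lay close above the filter. On the LPS arrays it stood at 6.82 with NR4A3 siRNA and 7.46 with control siRNA. On the unstimulated arrays it stood at 6.93 and 7.20 for the same siRNAs. Of 7 macrophage markers, 6 reached the filter on every array and none stayed below it throughout. Genes of both lists thus gave signal, which does not show which cell type prevailed. The mean log2 level of the macrophage list was 10.74 with NR4A3 siRNA and LPS, against 11.01 with NR4A3 siRNA unstimulated, and 10.29 with control siRNA and LPS, against 10.64 with control siRNA unstimulated. Of its 7 genes, 5 were lower and 2 higher with LPS under both siRNAs, and 6 were higher with NR4A3 siRNA in both states. Mrc1 stood at 7.40 with NR4A3 siRNA and 6.71 with control siRNA on the LPS arrays, against 11.26 with NR4A3 siRNA and 10.69 with control siRNA on the unstimulated arrays, while Adgre1 and Fcgr1 were the 2 that were higher with LPS. The mean of the dendritic cell list was 10.43 with NR4A3 siRNA and LPS, against 10.74 with control siRNA and LPS, and 10.20 with NR4A3 siRNA unstimulated, against 10.71 with control siRNA unstimulated. Of its 8 genes, 5 were lower and 1 higher with NR4A3 siRNA in both states. With LPS, 5 were lower and only Cd83 was higher under both siRNAs, although the list means were higher. Cd83 had the widest differences of the list and so weighs most on these means. With NR4A3 siRNA it stood at 10.63 with LPS and 8.44 without it. The control siRNA arrays had 12.36 with LPS and 11.09 without it. Markers of B cells (3 of 3 measured), NK cells (3 of 3) and T cells other than Cd5 (3 of 4) lay below the filter on all arrays, as did 5 of 6 neutrophil markers and 5 of 6 mast cell and basophil markers. The exceptions were S100a8 on every array and Kit on 3 arrays. A change in the number of cells of a type and a change in RNA per cell cannot be told apart in such bulk samples, and the part of the macrophage and dendritic cell markers in the Rab values was not tested.

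The LPS comparison addresses how the traffic machinery differs in activated cells. The clearest differences were higher levels of Rab20, a Rab of phagosome maturation, of Rab32, which serves lysosome-related organelles and defence against intracellular bacteria, and of Rab12, which sends recycling cargo such as the transferrin receptor to lysosomes. Rab10, which delivers TLR4 to the surface of mouse macrophages, and the endosomal Rab22a and Rab21 rose by less. Rab31, which connects the trans-Golgi network with endosomes, fell. In the fit, 9 Rab genes rose with LPS and 2 fell among the 45 tested, against 15.6% of all tested genes that rose and 14.4% that fell. For Rab genes this is 20.0% and 4.44%, and for both directions together 24.4%, against 30.0% of all tested genes. Of the 9 that rose, Rab30 entered the test only through 1 LPS array, so its filter pass and its rise share a value. At an unadjusted p under 0.05, 16 of the 45 Rab genes were higher and 4 lower, where 21.6% of all tested genes were higher and 20.3% lower.

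**Figure D1:**
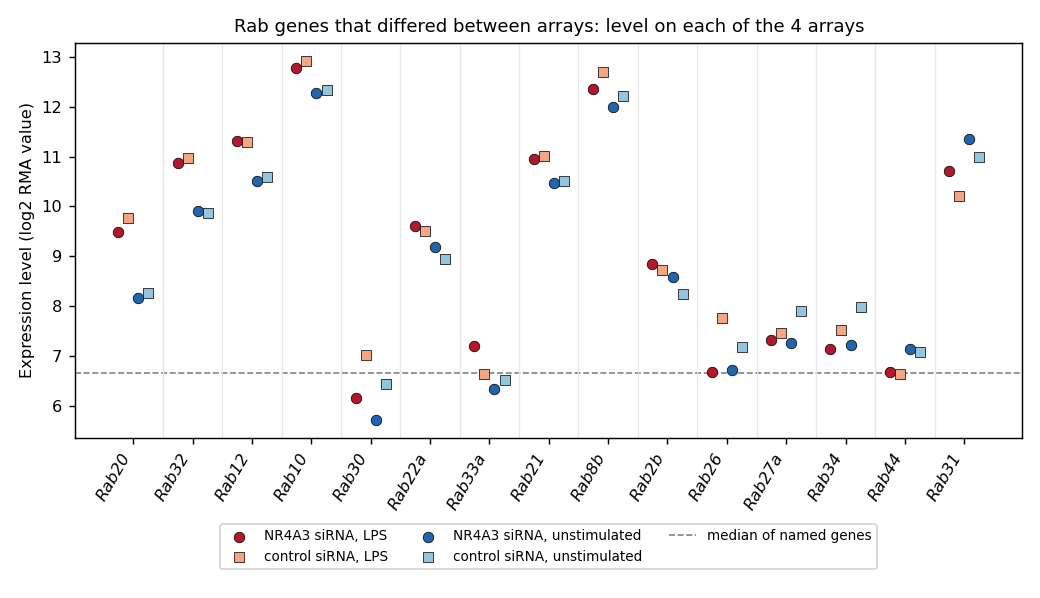
Log2 expression level of the 15 Rab genes that passed the test for either effect or lay at least 1.5-fold apart in a pair of arrays, ordered by the average LPS effect. Each point is 1 array, circles for NR4A3 siRNA and squares for control siRNA, red shades with LPS and blue shades without, and the dashed line is the filter at 6.66. For Rab20, Rab32, Rab12, Rab10, Rab21, Rab22a, Rab8b, Rab2b and Rab33a both LPS arrays lie above both unstimulated arrays. For Rab31 and Rab44 both lie below.

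The regulatory sequence of the 4 genes with the largest LPS rises is shown because all 4 were higher with LPS under either siRNA. The windows hold the 250 bases before the start site in RefSeq's annotation, 5′ to 3′ along the gene, and capitals mark a match to GAAANNGAA, part of the interferon-stimulated response element, on either strand.
Rab20, GRCm38.p6 chr8:11478641-11478890, minus strand: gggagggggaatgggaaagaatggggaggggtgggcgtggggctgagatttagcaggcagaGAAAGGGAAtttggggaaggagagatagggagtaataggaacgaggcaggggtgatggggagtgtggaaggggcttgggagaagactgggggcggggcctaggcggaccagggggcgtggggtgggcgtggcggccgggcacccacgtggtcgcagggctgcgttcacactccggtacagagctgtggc
Rab32, GRCm38.p6 chr10:10558208-10558457, minus strand: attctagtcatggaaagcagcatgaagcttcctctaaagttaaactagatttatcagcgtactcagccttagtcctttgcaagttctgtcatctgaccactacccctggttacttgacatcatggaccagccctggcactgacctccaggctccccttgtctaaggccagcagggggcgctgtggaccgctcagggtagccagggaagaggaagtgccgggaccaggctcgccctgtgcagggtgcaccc
Rab12, GRCm38.p6 chr17:66519671-66519920, minus strand: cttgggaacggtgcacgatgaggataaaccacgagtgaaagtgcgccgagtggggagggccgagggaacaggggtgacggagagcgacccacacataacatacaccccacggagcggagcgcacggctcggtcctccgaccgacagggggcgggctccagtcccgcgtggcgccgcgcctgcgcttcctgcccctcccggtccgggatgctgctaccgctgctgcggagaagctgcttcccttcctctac
Rab10, GRCm38.p6 chr12:3309970-3310219, minus strand: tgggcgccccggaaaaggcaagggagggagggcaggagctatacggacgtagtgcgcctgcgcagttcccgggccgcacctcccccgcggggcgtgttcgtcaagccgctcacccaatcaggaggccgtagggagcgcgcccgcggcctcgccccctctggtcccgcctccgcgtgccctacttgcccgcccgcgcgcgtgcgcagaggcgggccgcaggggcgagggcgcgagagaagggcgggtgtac
Of the 4, only the Rab20 window held the interferon motif, 189 bases before the start site. Over all Rab genes, 48 had a window in the RefSeq promoter table and 60 windows were searched. The motif was present in 3 of them, those of Rab19, Rab20 and Rab40b, and in 7.13% of all 32851 windows. The site AAAGGTCA, which NR4A receptors bind as monomers, was in none of the Rab windows and in 1.34% of all windows. The windows of Rab genes had a median GC content of 60.2%, against 52.4% for all windows. Rab30, described below for the siRNA comparison, had no window there.

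Among the Rabs of early endosomes and phagosomes, 3 of 8 tested genes rose and 1 fell, where 15.6% of all tested genes rose and 14.4% fell. The same shares apply to the other roles below, and no role was tested against them. Rab20 stood at 9.48 with NR4A3 siRNA and 9.77 with control siRNA on the LPS arrays, against 8.16 with NR4A3 siRNA and 8.26 with control siRNA on the unstimulated arrays. The LPS arrays lay above the unstimulated ones without overlap, by 2.5-fold with NR4A3 siRNA and 2.84-fold with control siRNA. Its average LPS effect was 1.42 ± 0.10 (SE, adjusted p = 0.000461), the largest of any Rab gene tested. Rab22a, which sorts cargo into recycling tubules and takes part in cross-presentation, had log2 levels of 9.61 with NR4A3 siRNA and 9.51 with control siRNA on the LPS arrays, against 9.18 with NR4A3 siRNA and 8.94 with control siRNA on the unstimulated arrays, with an effect of 0.50 ± 0.10 (SE, adjusted p = 0.0154). Both LPS arrays lay above both unstimulated ones. Rab21, known for integrin traffic, stood at 10.95 with NR4A3 siRNA and 11.01 with control siRNA on the LPS arrays, against 10.48 with NR4A3 siRNA and 10.52 with control siRNA on the unstimulated arrays, again without overlap, and rose by 0.48 ± 0.10 (SE, adjusted p = 0.0152) on the log2 scale. Rab31, the closest relative of Rab22a, went the other way. It stood at 10.71 with NR4A3 siRNA and 10.21 with control siRNA on the LPS arrays, against 11.36 with NR4A3 siRNA and 10.99 with control siRNA on the unstimulated arrays, so its LPS arrays lay below the unstimulated ones without overlap, and its effect was -0.72 ± 0.10 (SE, adjusted p = 0.00432), a 1.65-fold lower level. The 3 forms of Rab5, which drives fusion of early endosomes, did not pass the test. Rab5a had an effect of 0.30 ± 0.10 (SE, adjusted p = 0.0677) and Rab5c one of 0.28 ± 0.10 (SE, adjusted p = 0.0848), with both LPS arrays above both unstimulated ones for either gene. For Rab5b the effect was -0.05 ± 0.10 (SE, adjusted p = 0.729), with LPS and unstimulated arrays overlapping. Rab24 had an effect of -0.10 and Rab17, an epithelial Rab, stayed below the filter.

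Of the Rabs of recycling endosomes and the plasma membrane, 3 of 12 tested genes rose and none fell. Rab12 stood at 11.31 with NR4A3 siRNA and 11.28 with control siRNA on the LPS arrays, against 10.51 with NR4A3 siRNA and 10.58 with control siRNA on the unstimulated arrays. That was 1.74-fold higher with NR4A3 siRNA and 1.63-fold higher with control siRNA, and the effect was 0.75 ± 0.10 (SE, adjusted p = 0.00346). Rab10 stood at 12.79 with NR4A3 siRNA and 12.92 with control siRNA on the LPS arrays, against 12.27 with NR4A3 siRNA and 12.34 with control siRNA on the unstimulated arrays, with an effect of 0.55 ± 0.10 (SE, adjusted p = 0.00986). Rab8b, a Rab of surface delivery, stood at 12.36 with NR4A3 siRNA and 12.69 with control siRNA on the LPS arrays, against 11.99 with NR4A3 siRNA and 12.21 with control siRNA on the unstimulated arrays. Its LPS arrays lay above the unstimulated ones without overlap, and the effect was 0.43 ± 0.10 (SE, adjusted p = 0.0245). With quantile normalization repeated over the named genes, Rab8b no longer passed (adjusted p = 0.0655), and its adjusted p over all settings ran from 0.00643 to 0.0655. Its close relative Rab8a had an effect of 0.28 ± 0.10 (SE, adjusted p = 0.0802), Rab11a, the Rab of the recycling compartment that stores MHC class I in dendritic cells, one of 0.27 ± 0.10 (SE, adjusted p = 0.0867) and Rab13 one of 0.29 ± 0.10 (SE, adjusted p = 0.073). These 3 were higher on both LPS arrays than on both unstimulated arrays and did not pass. Rab14, Rab4b, Rab11b, Rab4a, Rab15 and Rab35 had effects between -0.19 and 0.14 that did not pass, and Rab25, an epithelial Rab, stayed below the filter. Rab11b, Rab2a and Rab5b had 2 probe sets each. For Rab11b the dimmer set had LPS differences of -0.48 with NR4A3 siRNA and -0.44 with control siRNA, while those of the brighter set were -0.12 and -0.09 for the same siRNAs, so the sets disagreed in size. The result for Rab11b thus rests on the brighter set, and the dimmer one was not tested on its own. With the mean of probe sets Rab11b did not pass.

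Among the 12 tested Rabs of the ER and Golgi, 2 rose. Rab30, a Golgi Rab, stood at 6.16 with NR4A3 siRNA and 7.01 with control siRNA on the LPS arrays, against 5.72 with NR4A3 siRNA and 6.43 with control siRNA on the unstimulated arrays, with an effect of 0.52 ± 0.10 (SE, adjusted p = 0.0138). Only its control siRNA array with LPS reached the filter, so it entered the test through the LPS group, where it was higher. Rab2b, which acts between the ER and the Golgi, stood at 8.84 with NR4A3 siRNA and 8.72 with control siRNA on the LPS arrays, against 8.58 with NR4A3 siRNA and 8.24 with control siRNA on the unstimulated arrays, with an effect of 0.37 ± 0.11 (SE, adjusted p = 0.0456). It did not pass with quantile normalization repeated, with cyclic loess or without the filter, and its adjusted p ran from 0.035 to 0.0876 over all settings. Rab33a was 1.82-fold higher with LPS under NR4A3 siRNA and 1.08-fold higher under control siRNA, and its average effect of 0.49 ± 0.18 (SE, adjusted p = 0.101) did not pass. The Rabs of basal transport between the ER and the Golgi had smaller values: Rab1a had an LPS effect of -0.12, Rab1b of -0.06, Rab2a of -0.05 and the Golgi Rab6a of 0.19, none past the test. Rab43, which mouse dendritic cells use in cross-presentation, had an effect of 0.19 ± 0.10 (SE, adjusted p = 0.2). Rab18, Rab19, Rab33b and Rab34 did not pass, and Rab36 and Rab6b stayed below the filter.

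No late endosomal or lysosomal Rab passed the test for LPS. Rab7, which brings late endosomes to lysosomes, stood at 12.62 with NR4A3 siRNA and 12.09 with control siRNA on the LPS arrays, against 12.84 with NR4A3 siRNA and 12.66 with control siRNA on the unstimulated arrays. Both LPS arrays lay below both unstimulated ones, and the effect of -0.40 ± 0.12 (SE, adjusted p = 0.0566) missed the threshold. With quantile normalization repeated, with an intensity trend in limma's prior or with the mean of probe sets, Rab7 passed. Rab7 has 1 probe set, so taking the mean left its values unchanged and altered only the prior and the adjustment. Rab7b, described as limiting TLR4 signalling in mouse macrophages, stood at 10.83 with NR4A3 siRNA and 10.41 with control siRNA on the LPS arrays, against 10.94 with NR4A3 siRNA and 10.76 with control siRNA on the unstimulated arrays. Its groups overlapped and its effect was -0.23 ± 0.11 (SE, adjusted p = 0.165). Rab9, which returns receptors to the Golgi, had an effect of 0.10 ± 0.10 (SE, adjusted p = 0.473). Rab39, Rab39b, Rab42 and Rab9b stayed below the filter on all arrays.

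Of the Rabs of regulated secretion and lysosome-related organelles, 7 of 12 were tested, 1 rose and 1 fell. Rab32 stood at 10.87 with NR4A3 siRNA and 10.97 with control siRNA on the LPS arrays, against 9.92 with NR4A3 siRNA and 9.86 with control siRNA on the unstimulated arrays. The difference was 1.94-fold with NR4A3 siRNA and 2.15-fold with control siRNA, and the effect was 1.03 ± 0.10 (SE, adjusted p = 0.00126). Its close relative Rab38, which serves the same organelles, stayed below the filter. Rab44, a large Rab of blood cells, stood at 6.67 with NR4A3 siRNA and 6.63 with control siRNA on the LPS arrays, against 7.13 with NR4A3 siRNA and 7.08 with control siRNA on the unstimulated arrays, close to the filter throughout, with an effect of -0.46 ± 0.10 (SE, adjusted p = 0.0178). Rab3d, a granule Rab, had an effect of -0.27 ± 0.10 (SE, adjusted p = 0.0994), and Rab26, Rab27a, Rab29 and Rab3a did not pass either. The other 5, Rab27b, Rab37, Rab38, Rab3b and Rab3c, stayed below the filter. Of the remaining genes, Rab23, a Rab of Hedgehog signalling and cilia, had an effect of 0.37 ± 0.12 (SE, adjusted p = 0.0608), Rab28 one of 0.15 and Rab40c one of -0.21, while Rab40b stayed below the filter.

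Counted in pairs of arrays, LPS left 4 Rab genes at least 1.5-fold higher and 1 lower with NR4A3 siRNA, where 10.3% of the genes past the filter were higher and 6.88% lower (17.2% in either direction). With control siRNA 5 were higher and 1 lower, where 10.2% were higher and 9.44% lower (19.7% in either direction). Past the filter were 44 Rab genes with NR4A3 siRNA and 43 with control siRNA. Rab20, Rab32, Rab12 and Rab33a were the 4 with NR4A3 siRNA, and Rab20, Rab32, Rab12, Rab26 and Rab10 the 5 with control siRNA. Rab31 was lower in both. Rab33a passed the filter only through the NR4A3 siRNA array with LPS, where it was higher. The median LPS difference of all 59 Rab genes was 0.05 with NR4A3 siRNA and 0.09 with control siRNA, against -0.02 and 0.00 over all named genes for the same siRNAs. The Rab median with NR4A3 siRNA was -0.01 when quantile normalization was repeated. The 2 pairs share no array, and 42 of 59 Rab genes had the same sign in both, or 71.2%, against 67.4% of all named genes. Across the Rab genes the differences had a Pearson's r of 0.811, and they had one of 0.862 across all named genes, which are not independent replicates. Among genes that reached the filter on at least 1 array, the same sign was shared by 77.8% of Rab genes and 78.4% of named genes. There r was 0.847 for Rab genes and 0.894 for named genes.

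**Figure D2:**
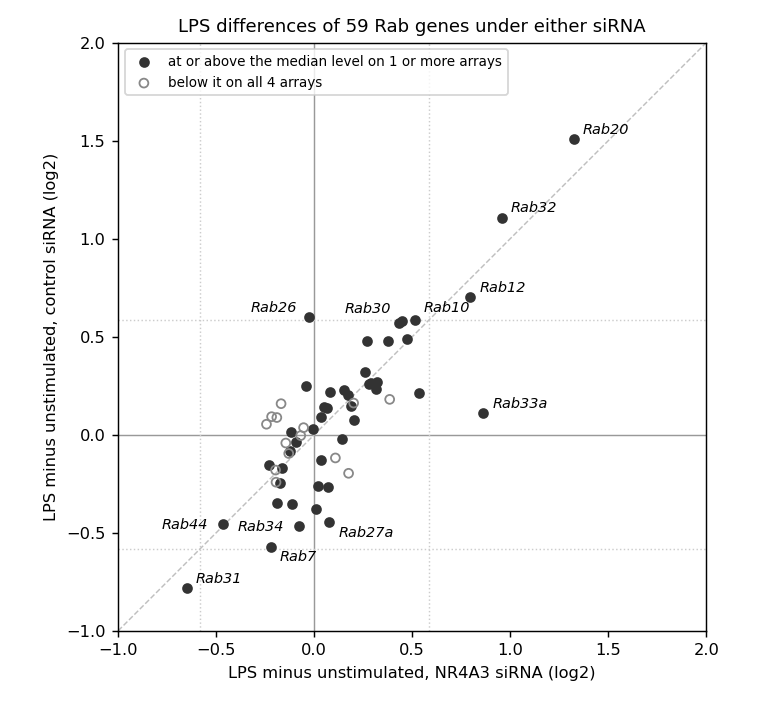
Log2 LPS difference of each of the 59 Rab genes with NR4A3 siRNA (horizontal) and with control siRNA (vertical), filled where the gene reached the filter on at least 1 array and open where it did not. Dotted lines mark 1.5-fold and the dashed line equal differences. Rab20, Rab32 and Rab12 stand out at the upper right and Rab31 at the lower left, while Rab33a and Rab26 lie far from the dashed line.

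**Figure D3:**
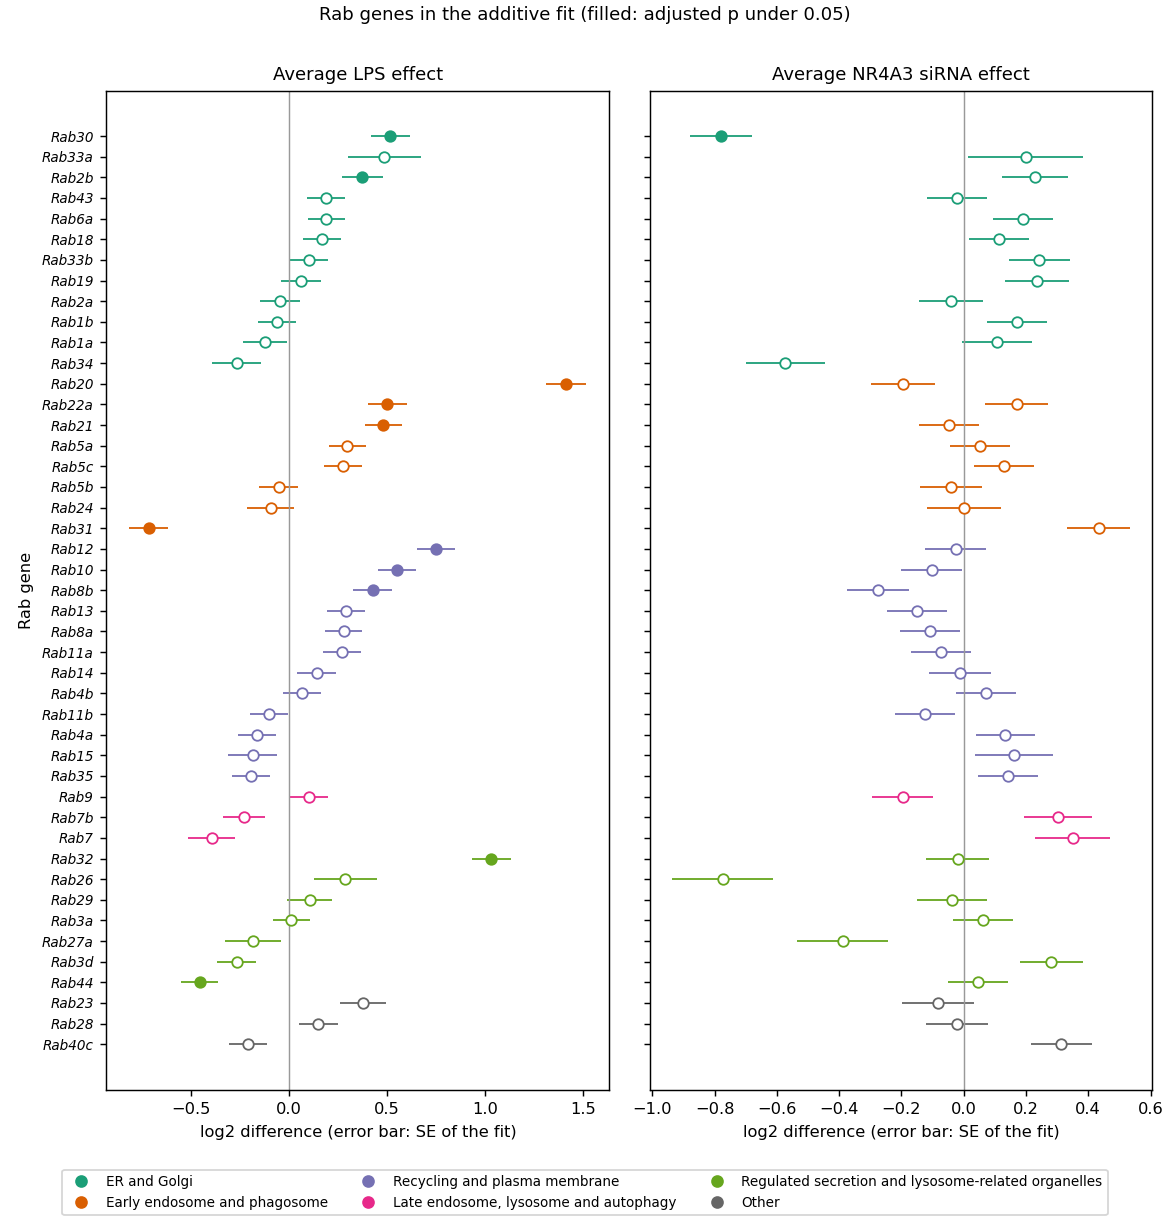
Average LPS effect (left) and average NR4A3 siRNA effect (right) of the 45 tested Rab genes as log2 differences, grouped by role and ordered by the LPS effect within it. Bars are the SE of the limma fit over 4 arrays, and filled points passed the threshold. On the left 9 points above zero and 2 below are filled, and on the right Rab30 alone.

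Setting NR4A3 siRNA against control siRNA asks how Rab levels differ when NR4A3 is reduced. Nr4a2, a gene of the same family, was also 2.28-fold lower with LPS and 1.24-fold lower without it on the NR4A3 siRNA arrays. Its average effect of -0.75 ± 0.21 (SE, adjusted p = 0.0944, limma) did not pass. Nr4a1 was 1.06-fold higher with LPS and 1.08-fold higher without. The part of Nr4a2 in the Rab values was not tested. Rab30 was lower with NR4A3 siRNA in both states, and it was the only Rab gene past the test, at 0 higher and 1 lower among 45, where 1.98% of all tested genes rose and 3.58% fell, 5.56% in all. That is 210 genes up and 379 down, and with cyclic loess it was 50 up and 217 down. At an unadjusted p under 0.05, 6 of the 45 Rab genes were higher and 5 lower, where 14.8% of all tested genes were higher and 11.4% lower, so these counts are near the background. Rab30 stood at 6.16 with LPS and 5.72 without it on the NR4A3 siRNA arrays, against 7.01 with LPS and 6.43 without it on the control siRNA arrays. That was 1.8-fold lower with LPS and 1.64-fold lower without it, although in the pair without LPS both arrays lay below the filter. Its average effect was -0.78 ± 0.10 (SE, adjusted p = 0.0187). Rab30 entered the test only through the control siRNA array with LPS, the highest of its 4 values and part of the higher group here, and both NR4A3 siRNA values lay below the filter. Without the filter its adjusted p was 0.0465, and over the settings that tested it the adjusted p ran from 0.0119 to 0.0465. The NR4A3 siRNA array with LPS lay below even the unstimulated control siRNA array.

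A further 3 Rab genes were at least 1.5-fold lower in 1 of the states. Rab26, which marks secretory granules, stood at 6.68 with LPS and 6.71 without it on the NR4A3 siRNA arrays, against 7.77 with LPS and 7.17 without it on the control siRNA arrays. It was 2.12-fold lower with LPS, the largest siRNA difference of any Rab gene, and 1.38-fold lower without LPS, and the average effect of -0.77 ± 0.16 (SE, adjusted p = 0.0555) missed the threshold. Rab34, which positions lysosomes and takes part in macropinocytosis, stood at 7.14 with LPS and 7.22 without it on the NR4A3 siRNA arrays, against 7.52 with LPS and 7.98 without it on the control siRNA arrays. It was 1.3-fold lower with LPS and 1.7-fold lower without, with an average effect of -0.57 ± 0.13 (SE, adjusted p = 0.0599). Both genes passed when each array was centred on its median, with an intensity trend in limma's prior and with the mean of probe sets, so their call depends on such choices. Each has 1 probe set, so taking the mean left their values unchanged and altered only the prior and the adjustment. Rab27a, which docks secretory organelles and exosomes, stood at 7.33 with LPS and 7.25 without it on the NR4A3 siRNA arrays, against 7.46 with LPS and 7.90 without it on the control siRNA arrays. Its control siRNA array without LPS was the highest of the 4, and the average effect was -0.39 ± 0.15 (SE, adjusted p = 0.165).

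In the other direction no Rab gene reached 1.5-fold. Rab31 stood at 10.71 with LPS and 11.36 without it on the NR4A3 siRNA arrays, against 10.21 with LPS and 10.99 without it on the control siRNA arrays. It was 1.41-fold higher with LPS and 1.29-fold higher without, and its effect was 0.43 ± 0.10 (SE, adjusted p = 0.0671). Rab40c had an average effect of 0.31 ± 0.10 (SE, adjusted p = 0.117) and Rab7 one of 0.35 ± 0.12 (SE, adjusted p = 0.143), and neither passed. Rab7b had one of 0.30 ± 0.11 (SE, adjusted p = 0.152) and Rab3d one of 0.28 ± 0.10 (SE, adjusted p = 0.155), which did not pass either. The Rabs with the largest LPS rises did not pass for the siRNA: Rab20 had an effect of -0.19 ± 0.10 (SE, adjusted p = 0.291), Rab32 of -0.02 ± 0.10 (SE, adjusted p = 0.927), Rab12 of -0.03 ± 0.10 (SE, adjusted p = 0.898) and Rab10 of -0.10 ± 0.10 (SE, adjusted p = 0.551). A p above the threshold does not show that these levels were equal.

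In pairs of arrays, NR4A3 siRNA left 0 Rab genes at least 1.5-fold higher and 2 lower with LPS (Rab26 and Rab30), where 3.73% of genes past the filter were higher and 4.73% lower (8.46% in either direction). Without LPS it left 0 higher and 2 lower (Rab34 and Rab27a), where 1.62% were higher and 4.69% lower (6.31% in either direction). The lower Rab genes made up 4.55% of those past the filter with LPS and 4.65% without, close to the share among all genes. Of those with LPS, Rab30 passed the filter only through the control siRNA array, where it was higher. The median siRNA difference of the 59 genes was 0.02 with LPS and -0.03 without, against 0.00 and 0.03 over all named genes. With cyclic loess the Rab median with LPS was -0.02. The 2 pairs share no array, and 39 of 59 Rab genes had the same sign in both, or 66.1%, against 61.1% of all named genes. Across the Rab genes the siRNA differences had a Pearson's r of 0.612, against 0.571 across all named genes. Among genes that reached the filter on at least 1 array, the same sign was shared by 71.1% of Rab genes and 70.6% of named genes. There r was 0.676 for Rab genes and 0.646 for named genes.

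**Figure D4:**
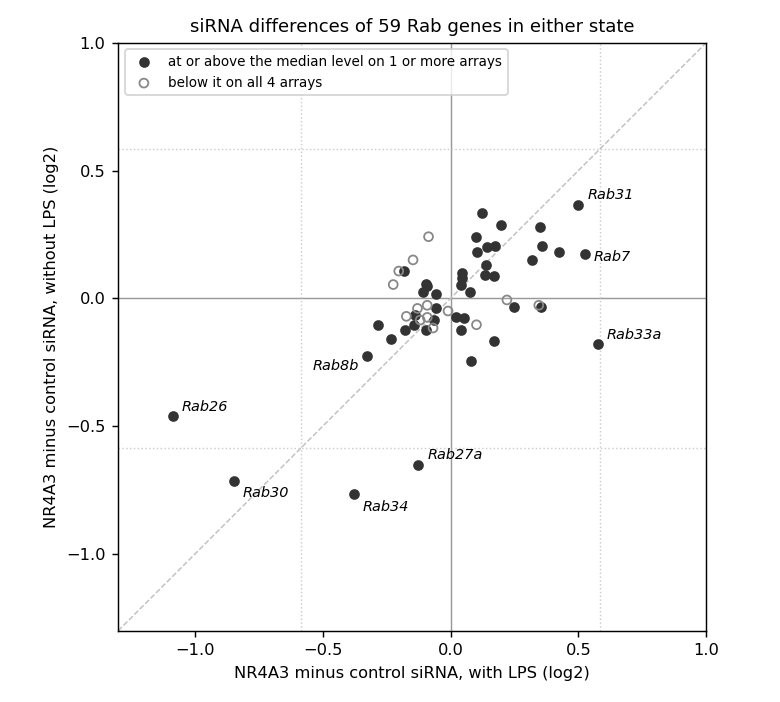
Log2 difference between NR4A3 and control siRNA for each of the 59 Rab genes with LPS (horizontal) and without LPS (vertical), filled where the gene reached the filter on at least 1 array and open where it did not. Dotted lines mark 1.5-fold and the dashed line equal differences. Rab30 lies near the dashed line at the lower left, Rab26 and Rab34 on either side of it, and Rab33a is positive with LPS and negative without.

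The LPS difference itself was set against that of the other siRNA, which uses every array once and has no test. Rab33a had an LPS difference larger by 0.75 on the log2 scale with NR4A3 siRNA than with control siRNA, and Rab26 one smaller, at -0.63. These were the 2 Rab genes past 1.5-fold, 1 in each direction among 45, where 2.90% of all genes past the filter were larger and 2.12% smaller. Rab33a stood at 7.21 with NR4A3 siRNA and 6.63 with control siRNA on the LPS arrays, against 6.34 with NR4A3 siRNA and 6.52 with control siRNA on the unstimulated arrays, and only the NR4A3 siRNA array with LPS reached the filter.

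The 44 Rab genes that were counted in no comparison comprised 30 past the filter and the 14 below it. Over the 4 arrays the first kind spanned between 0.08 (Rab3a) and 0.75 (Rab7) on the log2 scale and the second between 0.10 (Rab37) and 0.385 (Rab39b). The median span of all 59 was 0.34, against 0.26 over all named genes. These medians are not matched for level, since 76.3% of Rab genes and 53.1% of named genes reached the filter.

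The proteins that switch, modify and read Rabs were described from a list of 121 genes, of which 116 were measured and 104 tested. LPS raised 19 and lowered 12 of them, where 15.6% of all tested genes rose and 14.4% fell. NR4A3 siRNA raised 2 and lowered 6, where 1.98% of all tested genes rose and 3.58% fell. The same shares apply to each list below, and no list was tested against them. Among exchange factors 7 of 27 tested rose with LPS and 4 fell. Dennd3, the exchange factor of Rab12, stood at 8.77 with NR4A3 siRNA and 9.47 with control siRNA on the LPS arrays, against 7.63 with NR4A3 siRNA and 8.13 with control siRNA on the unstimulated arrays, with an LPS effect of 1.24 ± 0.10 (SE, adjusted p = 0.000714). Rab3il1, an exchange factor of Rab8, fell most of the tested partners. It stood at 8.30 with NR4A3 siRNA and 7.80 with control siRNA on the LPS arrays, against 10.28 with NR4A3 siRNA and 9.84 with control siRNA on the unstimulated arrays, with an effect of -2.01 ± 0.10 (SE, adjusted p = 0.000115). Of the 33 GTPase-activating proteins tested, 5 rose and 4 fell, and of the 37 effectors 7 rose and 4 fell. Among the effectors, Micall2, which binds Rab8 and Rab13, rose by 1.34 ± 0.10 (SE, adjusted p = 0.000483), Appl1, an effector of Rab5, by 0.68 ± 0.10 (SE, adjusted p = 0.0051) and Fyco1, which links Rab7 to kinesin, by 0.69 ± 0.10 (SE, adjusted p = 0.00515). Effectors of Rab11 moved in both directions, Rab11fip1 with 0.71 ± 0.12 (SE, adjusted p = 0.00859) and Rab11fip5 with -1.09 ± 0.10 (SE, adjusted p = 0.000953).

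With NR4A3 siRNA, the lower partners were Rabgap1l, Tbc1d8, Dennd4a, Chm, Tbc1d4 and Dennd3. Rabgap1l, a GTPase-activating protein, stood at 8.28 with LPS and 7.29 without it on the NR4A3 siRNA arrays, against 9.63 with LPS and 9.26 without it on the control siRNA arrays. Both NR4A3 siRNA values lay below both control values, and the effect was -1.66 ± 0.16 (SE, adjusted p = 0.0108). Chm, the escort protein that presents new Rabs for prenylation, stood at 8.41 with LPS and 8.32 without it on the NR4A3 siRNA arrays, against 9.30 with LPS and 9.08 without it on the control siRNA arrays, again without overlap, with an effect of -0.82 ± 0.10 (SE, adjusted p = 0.0171). The other 6 tested genes of that list, among them both subunits of the transferase (Rabggta and Rabggtb) and Gdi2, did not pass for either effect. Tbc1d8 had an effect of -1.08 ± 0.10 (SE, adjusted p = 0.0107) and Dennd4a, an exchange factor of Rab10, one of -1.04 ± 0.11 (SE, adjusted p = 0.0118). Tbc1d4, the GTPase-activating protein that holds back Rab10, had an effect of -0.69 ± 0.11 (SE, adjusted p = 0.0299) and Dennd3 one of -0.60 ± 0.10 (SE, adjusted p = 0.0371). The 2 that rose were Tbc1d2, a GTPase-activating protein of Rab7, with 0.66 ± 0.10 (SE, adjusted p = 0.026), and Dennd2d, an exchange factor of Rab9, with 0.57 ± 0.10 (SE, adjusted p = 0.035). Among all tested genes 1.98% rose and 3.58% fell with NR4A3 siRNA, and 15.6% rose and 14.4% fell with LPS.

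**Figure D5:**
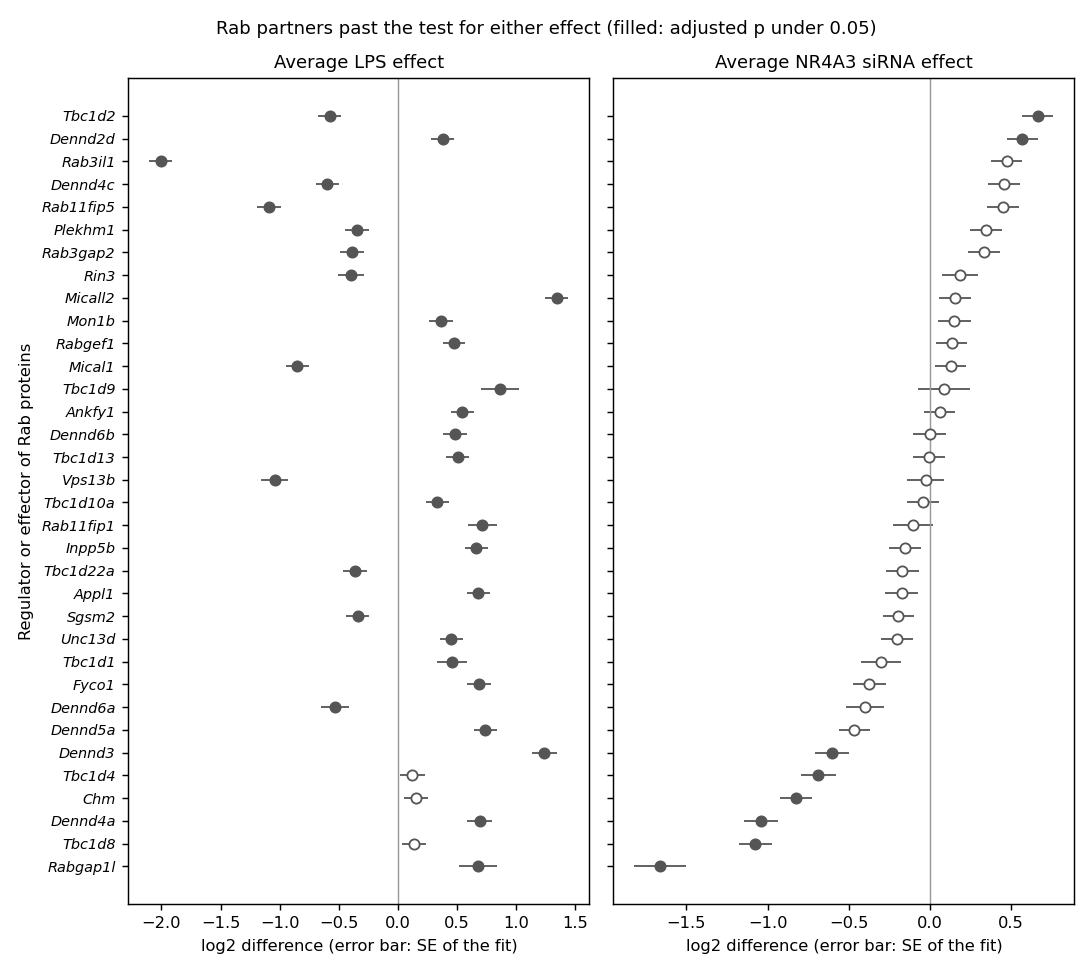
Average LPS effect (left) and average NR4A3 siRNA effect (right), as log2 differences, of the 34 regulators and effectors of Rab proteins that passed the test for either one, ordered by the siRNA effect. Bars are the SE of the limma fit over 4 arrays and filled points passed the threshold. Micall2 and Dennd3 lie farthest above zero for LPS and Rab3il1 farthest below, and Rabgap1l lies farthest below zero for the siRNA.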

How the data were processed

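The authors deposited log2 expression values from RMA, which corrects background, quantile-normalizes arrays and summarises probes, made with Affymetrix Expression Console 1.1 per the submitters' processing notes. The values were used without further scaling. Gene symbols came from GEO's platform table, dated 2016: of 28856 probe sets, 21789 had 1 gene symbol, 1621 several and 5446 none. The 7067 without a single symbol were left out, and the brightest set stood for each of 19938 genes. Array medians lay between 6.37 and 6.42, and with 1 array per condition the number of arrays limits the precision.

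Differences between 2 arrays were counted at 1.5-fold with the brighter array at 6.66 or above. The average effects came from limma 3.58.1 (lmFit and eBayes, siRNA plus LPS, Benjamini-Hochberg adjustment over 10592 genes with 1 or more arrays at 6.66). The fit was also run on simulated data with independent noise, LPS changes in some genes and no siRNA effect. Those data held no difference of the LPS effect between siRNAs, so that part of the error was not checked. Members, roles, partner and marker lists were chosen with earlier results of these data known. All members are accounted for by role, and those past a threshold are given with their values. Alternatives were other scalings, filters, folds, probe set rules and prior settings. Protein sequences were not used here.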

Additional observations from a re-analysis of the deposited data

Results flagged for a closer look

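The following 5 results went in opposite directions on the arrays compared, and none of these differences was tested. Other Rab genes changed sign as well. Of genes that reached the filter on at least 1 array, 77.8% of Rab genes kept their sign between the LPS differences. The share was 78.4% for named genes. Between the siRNA differences it was 71.1% for Rab genes and 70.6% for named genes, so such changes were near the background. Rab26 had an LPS difference of -0.03 with NR4A3 siRNA and 0.60 with control siRNA, so that the LPS difference was -0.63 on the log2 scale with NR4A3 siRNA relative to control siRNA. Rab27a had one of 0.08 with NR4A3 siRNA and -0.45 with control siRNA, which differ by 0.52. For Rab33a the NR4A3 siRNA difference was 0.58 with LPS and -0.18 without LPS, which differ by 0.75, and only 1 of its arrays reached the filter. Rab12 had an siRNA difference of 0.02 with LPS and -0.07 without, which differ by 0.10. Rab32 had one of -0.10 with LPS and 0.06 without, a contrast of -0.15. For Rab12 and Rab32 all of these siRNA differences lay close to zero.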

How the results depend on the processing

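With 1 array per condition there is no replicate check of any pair, and the fit has 1 residual degree of freedom. No paired analysis was possible because each condition has 1 array, so the conditions share only 1 replicate number, given in accession order. The additive fit itself sets LPS against no LPS within each siRNA. Leaving out an array was not run, since the additive fit would then have no residual degrees of freedom.

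At 2-fold, LPS left 1 Rab gene with NR4A3 siRNA (5 at 1.5-fold) and 2 with control siRNA (6 at 1.5-fold), and NR4A3 siRNA left 1 with LPS and 0 without (2 each at 1.5-fold). With the filter at the 75th percentile of named genes, 8.67, NR4A3 siRNA left 0 Rab genes with LPS and 0 without. Rab26, Rab30, Rab34 and Rab27a did not reach 8.67 on any array, so they could not be counted there. In the fit, the siRNA count of 1 became 3 when arrays were centred on their median, with an intensity trend in the prior and with the mean of probe sets, Rab26 and Rab34 joining Rab30. It was 0 with the 75th percentile filter, where Rab30 was not tested. The LPS count of 11 lay between 9 and 14. The count of 9 came with the 75th percentile filter, where Rab30 and Rab44 were not tested. None of the effects and differences of single Rab genes that were recomputed reversed its direction under the alternatives run. The median over the 59 Rab genes did so for LPS with NR4A3 siRNA (0.05, and -0.01 with quantile normalization repeated) and for NR4A3 siRNA with LPS (0.02, and -0.02 with cyclic loess). Over all genes, the siRNA fit called 210 higher and 379 lower, against 24 and 132 without the filter, 50 and 217 with cyclic loess and 109 and 261 with quantile normalization repeated. Between pairs of arrays, the counts over all genes at 2-fold were 550 higher and 281 lower for LPS with NR4A3 siRNA (1070 and 712 at 1.5-fold), and 517 and 396 with control siRNA (1058 and 977). For NR4A3 siRNA they were 48 and 171 with LPS (381 and 483), and 21 and 176 without (166 and 481). With the 75th percentile filter they were 777 and 579 for LPS with control siRNA, 230 and 341 for NR4A3 siRNA with LPS, and 92 and 274 without.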

Other observations

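The Rab partners not described so far included further genes past the test for LPS. Vps13b, a Golgi-associated lipid transfer protein that binds Rab6, fell by 1.04 ± 0.11 (SE, adjusted p = 0.00186) on the log2 scale, and Mical1, which oxidises actin, had an effect of -0.85 ± 0.10 (SE, adjusted p = 0.00215). Of the exchange factors, Dennd4c had an effect of -0.60 ± 0.10 (SE, adjusted p = 0.0071) and Dennd6a one of -0.54 ± 0.12 (SE, adjusted p = 0.0209). Inpp5b, an inositol phosphatase recruited by Rabs, rose by 0.66 ± 0.10 (SE, adjusted p = 0.00513), Tbc1d9 by 0.86 ± 0.16 (SE, adjusted p = 0.0118) and Dennd5a by 0.74 ± 0.10 (SE, adjusted p = 0.00347). Unc13d (Munc13-4), the Rab27a effector of granule release, rose by 0.45 ± 0.10 (SE, adjusted p = 0.0197), and Plekhm1, an effector of Rab7, fell by 0.35 ± 0.10 (SE, adjusted p = 0.0461).

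Some partners act on Rabs that were themselves described, and they were set side by side after their values were seen, with no test of the pairing. Rab12 had an LPS effect of 0.75 and its exchange factor Dennd3 one of 1.24, while the NR4A3 siRNA effect was -0.03 for Rab12 and -0.60 for Dennd3. Rab10 had an LPS effect of 0.55, its exchange factor Dennd4a one of 0.69 and Tbc1d4, which switches it off, one of 0.12. The siRNA effects were -0.10 for Rab10, -1.04 for Dennd4a and -0.69 for Tbc1d4. Rab7 had an LPS effect of -0.40 and an siRNA effect of 0.35, neither past the test, and Tbc1d2, which switches Rab7 off, had -0.58 and 0.66, both past it. Other pairs differed in sign for LPS. Rab3il1, an exchange factor of Rab8, had an LPS effect of -2.01, while Rab8b had one of 0.43. Of the Rab7 effectors named above, Fyco1 had an LPS effect of 0.69 and Plekhm1 one of -0.35.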
